A study of Drosophila melanogaster with 35 samples.

Results

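Glycolytic enzyme genes were followed in whole male Drosophila after normal aging and after 5 treatments: Pfk (phosphofructokinase), Tpi (triose phosphate isomerase), Gapdh1 and Gapdh2 (the glyceraldehyde-3-phosphate dehydrogenases, GAPDH), Pgk (phosphoglycerate kinase), Pglym78 (phosphoglycerate mutase), Eno (enolase), Pyk (pyruvate kinase) and Ldh (lactate dehydrogenase). They were looked up by current symbol among the array's probe sets that match a single gene, and 5 of the 9 were found in that way: Pfk, Gapdh1, Pgk, Pglym78 and Eno, out of 10844 genes with such a probe set. Gapdh2, Pyk and Ldh were named instead through the study's supplementary annotation, which was held only in part and covers genes that the authors found altered. These 3 genes are therefore described with their values and enter no count, and their tests are tied to the way they were named. Tpi was represented only by a probe set matched to both CG1607 and Tpi, which is likewise in no count.

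Glycolysis is the cytosolic pathway that splits glucose into pyruvate and makes ATP without oxygen. Phosphofructokinase is its main point of control, GAPDH makes NADH, phosphoglycerate kinase and pyruvate kinase make the ATP, and lactate dehydrogenase turns pyruvate into lactate and gives back the NAD+ that GAPDH needs. In insects much of the NADH from glycolysis is reoxidized through the glycerol phosphate shuttle, and flight muscle is the tissue known for a very high glycolytic rate. In Drosophila larvae the nuclear receptor ERR is known to drive genes of this pathway, Ldh among them, and the hypoxia-inducible factor sima is known to raise Ldh in low oxygen.

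All flies were males of the genotype w[1118]; P{w+ rtTA}(3)[E2]/+, hybrids of Oregon-R wild type with a strain that carries rtTA, a drug-dependent transcriptional activator. Every group, controls included, therefore had 1 copy of the rtTA insertion. The aging study had 6 young controls of 10 days, 4 old samples of 61 days and 6 hyperoxia samples, kept in 100% oxygen for 5 days from 3 days of age and 8 days old at sampling. The old and hyperoxia flies were the survivors of cohorts in which part of the flies had died. The stress study had 4 stress controls of 9 days and 3 heat stress samples of 9 days, held at 37 °C for 5.5 hours in sucrose vials. Its 4 ionizing radiation samples had 5666 rads per hour for 16 hours and then 2 days in vials of 1% sucrose, its 4 hydrogen peroxide samples spent 2 days in sucrose vials that also held 3% hydrogen peroxide, and its 4 sugar samples spent 2 days in the sucrose vials alone. The irradiated, peroxide and sugar flies were all 11 days old. These ages are those of the sample labels, and the study's methods give a single, later starting age for all stress treatments, which the labels of the hyperoxia samples do not share. Stress and sugar samples were vials of 25 flies, each processed by itself for 1 array.

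A value is the normalized signal of 1 probe set on 1 of 35 Affymetrix DrosGenome1 arrays, in arbitrary units, and signals of different probe sets cannot be set against each other. Fold changes are on the scale log2(signal + 34.1) and come from a limma model of all arrays. Calls needed both an assignment to the comparison by limma's nested F-test, with the FDR held at 1%, and a change of 1.5-fold or more (0.58 on the log2 scale). Adjusted p-values are from limma's moderated test within the comparison, by Benjamini and Hochberg over all probe sets.

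The 10 testis markers summed to between 47178 and 136054 on the arrays and the 8 accessory gland markers to between 27543 and 108434, whereas the 5 female markers summed to between 649 and 2896. Old replicate 2 stood apart from every other array: its 3' to 5' signal ratio was 138 for the GAPDH control probe sets and 283 for the actin controls, against 1.88 to 10.2 and 1.48 to 7.44 on the other 34 arrays. Ionizing radiation replicate 1 had the next highest actin ratio, 7.44. The 4 sugar arrays were deposited on a lower scale, with array medians of 44.7 to 70.1 against 347 to 446 on the others. Values of these enzymes in old flies are given with and without Old replicate 2, as are the counts and named genes of the other lists in old flies.

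**Figure D1:**
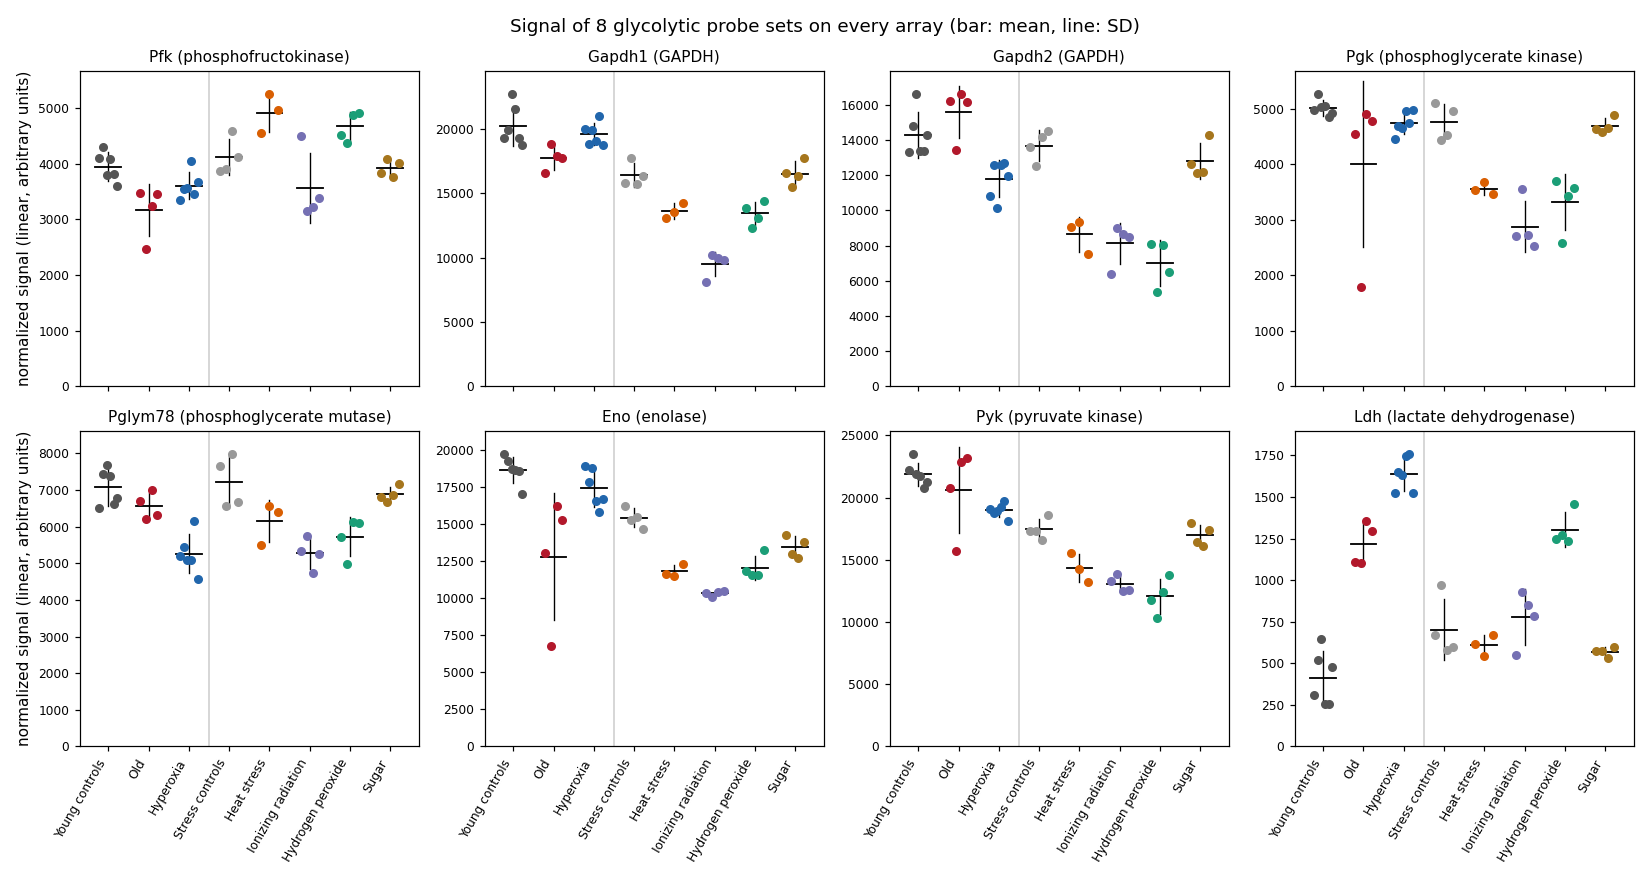
Normalized signal (linear scale, arbitrary units, from 0) of 8 glycolytic probe sets on each of 35 arrays by group; points are arrays, the horizontal bar is the group mean and the vertical line its SD, and the grey line parts the aging study from the stress study. Ldh is higher in old, hyperoxia and hydrogen peroxide flies than in their controls, Gapdh1 is lowest after ionizing radiation, and the single low point of Pgk and Eno among the old arrays is Old replicate 2.

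Old flies against young controls show how these genes differ between survivors at 61 days and flies of 10 days. Ldh was higher in old flies and Eno was lower, while none of the other enzymes was called. Of the 5 enzymes in the count, 0 were up-regulated and 1, Eno, was down-regulated, against 14.9% of all genes called in aging in either direction. All 5 had a negative log2 fold change, with a median of -0.33, beside a median of 0.03 over all genes. All 5 were still negative without Old replicate 2, with a median of -0.22 beside 0.02. In whole flies, less RNA per cell and fewer cells of a type cannot be told apart, here and in every comparison that follows.

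Ldh, the enzyme that makes lactate, had signals of 1109, 1102, 1358 and 1294 in old flies, against a lowest of 254, a median of 392 and a highest of 644 in the 6 young controls. Every old array lay above every young array, and the young arrays differed among themselves by more than the old ones did. Ldh averaged 1216 ± 130 (SD, n = 4) at 61 days and 410 ± 161 (SD, n = 6) at 10 days, a 2.96-fold increase (log2 fold change 1.57, 95% interval 1.19 to 1.94, limma adjusted p = 7.44e-08). Without Old replicate 2 the log2 fold change of Ldh was 1.61 (limma adjusted p = 4.19e-07), so that the increase did not rest on that array.

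Eno, which makes phosphoenolpyruvate, had signals of 13028, 6758, 16230 and 15274 in old flies, and a lowest of 17068, a median of 18697 and a highest of 19730 in young controls. Every old array lay below every young array, but Old replicate 2 lay far below the other old arrays. With all arrays included, Eno averaged 12822 ± 4260 (SD, n = 4) at 61 days and 18671 ± 901 (SD, n = 6) at 10 days, which gave a log2 fold change of -0.62 (95% interval -0.90 to -0.34, limma adjusted p = 0.000839). Without Old replicate 2 it was -0.33 (limma adjusted p = 0.00244), which is under the 1.5-fold threshold, and the count of enzymes called in aging was then 0 of 5, with 1544 of 10844 genes called.

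Pgk, which makes ATP, had signals of 4547, 1784, 4907 and 4784 in old flies and a lowest of 4848, a median of 5005 and a highest of 5261 in young controls. Old replicate 2 was alone far below the rest. Of the other 3 old arrays 1 lay within the young range and 2 lay below it. The log2 fold change was -0.43 (limma adjusted p = 0.0619) with all arrays and -0.08 (limma adjusted p = 0.639) without Old replicate 2. Against the mean of the other old arrays, Old replicate 2 was lower by 1.39 in Pgk and 1.13 in Eno on the log2 scale, while Gapdh1 was 0.12 higher. Over all genes this difference ran from -1.05 at the 5th percentile to 0.87 at the 95th.

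The remaining enzymes were not called in aging. Pfk, the control point of the pathway, ran from 2478 to 3476 in old flies and from 3596 to 4301 in young flies, without overlap. Its log2 fold change of -0.33 (limma adjusted p = 0.0129) was not called, and without Old replicate 2 it was -0.22 (limma adjusted p = 0.111). Pfk and Eno were the 2 of 5 enzymes without overlap in aging, against 19.7% of all genes. Gapdh1 had a log2 fold change of -0.19 (limma adjusted p = 0.0865; -0.22 without Old replicate 2), and Pglym78 one of -0.11 (limma adjusted p = 0.438; -0.08 without it). Gapdh2 was at 0.13 (limma adjusted p = 0.480; 0.20 without it) and Pyk at -0.10 (limma adjusted p = 0.476). Pyk was at 0.02 without Old replicate 2, so the sign of its value depended on that array. The old and young arrays of Gapdh2 and Pyk overlapped. The shared probe set of CG1607 and Tpi ran from 6334 to 8727 in old flies and from 7000 to 7869 in young flies.

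**Figure D2:**
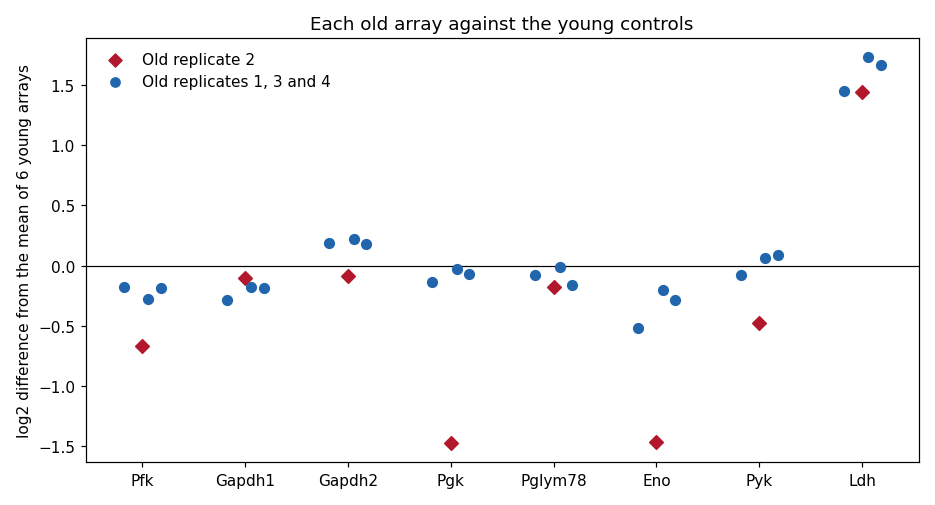
Difference of each of the 4 old arrays from the mean of 6 young arrays (log2 scale) for 8 glycolytic genes; red diamonds mark Old replicate 2 and blue circles the other old arrays. Ldh is higher on every old array, between 1.44 and 1.73, whereas the low means of Pgk and Eno are set largely by Old replicate 2, at -1.47 and -1.46.

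Hyperoxia against young controls tests the response to high oxygen. Ldh was higher in every hyperoxia sample, and none of the 5 enzymes in the count was called by limma's nested F-test, against 8.23% of all genes. At an unadjusted p under 0.05 in limma's moderated test, 1 of the 5 was lower, beside 28.1% of all genes in either direction. The median log2 fold change of the 5 was -0.10 and that of all genes 0.02.

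Ldh signals in hyperoxia had a lowest of 1524, a median of 1641 and a highest of 1758, against 254, 392 and 644 in young controls. No hyperoxia array came near the young range. The increase was 3.98-fold, from 410 ± 161 (SD, n = 6) to 1639 ± 102 (SD, n = 6), with a log2 fold change of 1.99 (95% interval 1.66 to 2.33, limma adjusted p = 6.15e-11).

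Pglym78, the mutase that moves the phosphate of phosphoglycerate, was the enzyme of the count with the lower signal in hyperoxia. It ran from 4570 to 6165 with a median of 5149, against 6507 to 7690 with a median of 7075 in young controls, so that the groups did not overlap, in 1 of the 5 enzymes against 12.0% of all genes. Its log2 fold change of -0.43 (95% interval -0.59 to -0.26, limma adjusted p = 0.000179) was a 1.34-fold difference, under the 1.5-fold threshold. Gapdh2 was lower by 1.21-fold (limma adjusted p = 0.0670) and Pyk by 1.15-fold (limma adjusted p = 0.0915), both without overlap of the arrays and neither called. Pfk, Gapdh1, Pgk and Eno lay between -0.13 and -0.04 on the log2 scale, each with overlapping arrays.

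The effects of aging and of hyperoxia share the young controls, and the difference between them was tested directly, as old against hyperoxia arrays. Of the 5 enzymes, 2 differed at a limma adjusted p under 0.01, against 19.5% of all genes: Eno, by -0.52 on the log2 scale (adjusted p = 0.00467), and Pglym78, by 0.32 (adjusted p = 0.00718). Without Old replicate 2 the count was 1: Eno fell out, at -0.23 (adjusted p = 0.0333), and Pglym78 remained, at 0.34 (adjusted p = 0.00860). For Ldh the difference was -0.42 (95% interval -0.80 to -0.05, adjusted p = 0.0919; -0.38 without Old replicate 2), so a difference in size between its 2 increases was not shown.

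**Figure D3:**
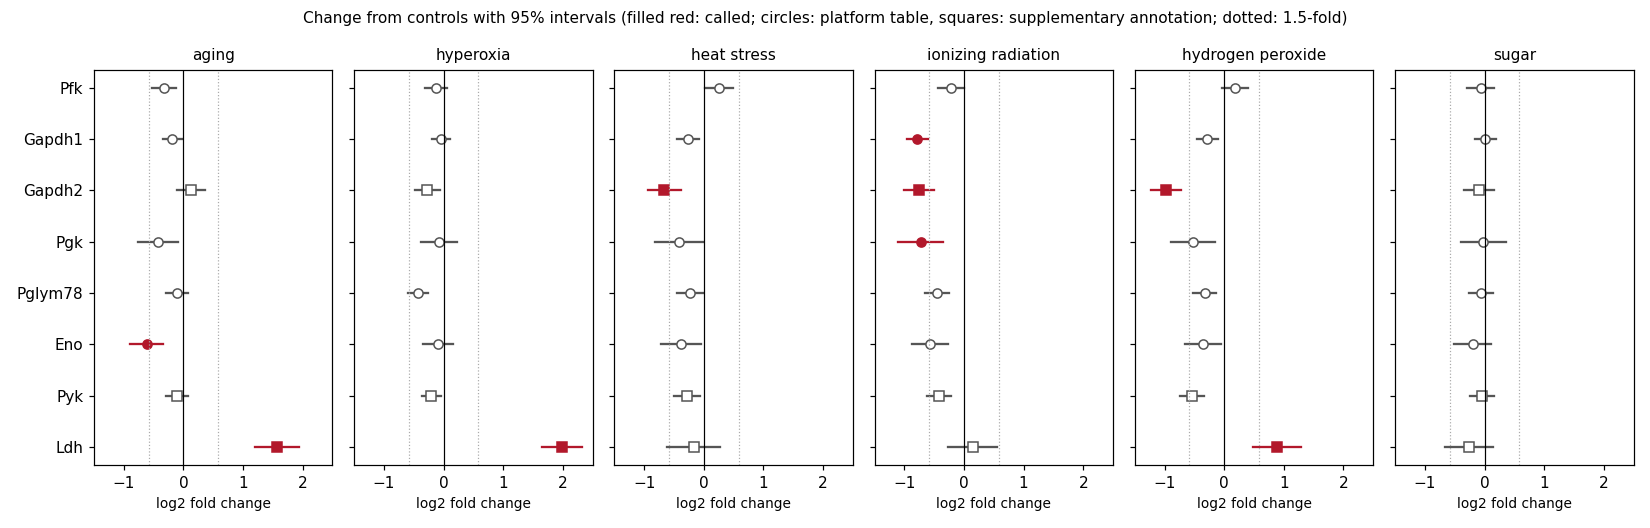
Log2 fold change of 8 glycolytic genes (points) with 95% intervals (lines) in 6 comparisons with each study's own controls; red and filled means called, circles are the 5 genes of the count and squares the 3 genes named through the supplementary annotation, and dotted lines mark 1.5-fold. Ldh stands to the right in aging, hyperoxia and hydrogen peroxide, and the enzymes from Gapdh1 to Pyk stand to the left of 0 after ionizing radiation, whereas none is called in sugar flies.

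Heat stress against stress controls compares 3 arrays with 4. Gapdh2 was lower after heat stress, Ldh was not called, and 0 of the 5 enzymes in the count were called by limma's nested F-test, against 14.0% of all genes. At an unadjusted p under 0.05 in limma's moderated test 1 of the 5 was higher and 4 were lower, beside 33.3% of all genes in either direction. Their median log2 fold change was -0.27, beside 0.00 for all genes.

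Gapdh2 had signals of 9056, 9357 and 7500 after heat stress and 13613, 12502, 14152 and 14488 in stress controls. The groups lay well apart. The 1.59-fold decrease, from 13689 ± 870 (SD, n = 4) to 8638 ± 997 (SD, n = 3), had a log2 fold change of -0.67 (95% interval -0.94 to -0.39, limma adjusted p = 0.000446). Without Heat stress replicate 3, the lowest array, it was -0.57 and under the 1.5-fold threshold (limma adjusted p = 0.00913).

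After heat stress the log2 fold change of Gapdh1, the other GAPDH copy, was -0.27 (limma adjusted p = 0.0389), that of Pgk -0.41 (limma adjusted p = 0.154), that of Eno -0.38 (limma adjusted p = 0.0991) and that of Pyk -0.29 (limma adjusted p = 0.0581). In these 4 genes the heat-stressed arrays lay below all stress controls, and none was called. Without Old replicate 2, whose signals enter the shared estimate of the spread, limma adjusted p was 0.00429 for Pgk and 0.00171 for Eno. Both stayed under 1.5-fold. Of the 5 enzymes in the count 3 had groups without overlap, against 35.3% of all genes. Pfk went the other way, from 4125 ± 330 (SD, n = 4) to 4920 ± 354 (SD, n = 3), with a log2 fold change of 0.25 (limma adjusted p = 0.137) and overlapping arrays. Ldh signals were 614, 545 and 669 after heat stress and 668, 970, 579 and 596 in stress controls, a log2 fold change of -0.17 (95% interval -0.61 to 0.27, limma adjusted p = 0.663). On the shared probe set of CG1607 and Tpi, Heat stress replicate 1 read 2796 and the other 2 arrays 4960 and 4931, so that 1 array set its mean.

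The increase of Ldh in aging differed from its change in heat stress by 1.74 on the log2 scale (limma adjusted p = 1.66e-05; 1.78 without Old replicate 2), and Gapdh2 differed by 0.79 (limma adjusted p = 0.000854; 0.86 without it). Of the 5 enzymes in the count, 1 differed between aging and heat stress, against 21.0% of all genes: Pfk, by -0.58 (limma adjusted p = 0.00427). The count was 0 without Old replicate 2, with Pfk at -0.47 (limma adjusted p = 0.0129).

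After ionizing radiation both GAPDH genes and Pgk were lower. Against stress controls, 2 of the 5 enzymes were down-regulated, Gapdh1 and Pgk, and 0 were up-regulated, where 16.0% of all genes were called in either direction and 8.23% were called down. All 5 had negative log2 fold changes, with a median of -0.57, beside 0.03 for all genes. Gapdh2, outside the count, was also called lower, and Ldh was not called.

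Gapdh1 had signals of 8083, 10206, 9944 and 9777 after ionizing radiation, against 15811, 17720, 15717 and 16329 in stress controls. The lowest control stood far above the highest irradiated array. The mean fell 1.73-fold, from 16394 ± 924 (SD, n = 4) to 9503 ± 963 (SD, n = 4), with a log2 fold change of -0.79 (95% interval -0.96 to -0.61, limma adjusted p = 1.34e-08). In the same comparison Gapdh2 had signals of 6410, 8978, 8648 and 8497 against 13613, 12502, 14152 and 14488, a log2 fold change of -0.76 (95% interval -1.01 to -0.50, limma adjusted p = 1.70e-05). Both GAPDH copies were thus lower without overlap. Probe sets of close gene copies can bind RNA of both, and whether these 2 do was not tested.

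Pgk had signals of 2708, 3546, 2723 and 2536 after ionizing radiation, against 5102, 4443, 4532 and 4952 in stress controls. Every irradiated array was lower than every control. The decrease was 1.66-fold (log2 fold change -0.73, 95% interval -1.10 to -0.35, limma adjusted p = 0.00312). When the sugar arrays were left out of the model the value was -0.73 (limma adjusted p = 0.00597), but the nested F-test no longer assigned Pgk to this comparison, which left 1 of the 5 called. Without Old replicate 2, whose low Pgk signal enters the shared estimate of the spread, the limma adjusted p of Pgk here was 6.77e-07.

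The enzymes after Pgk came close to the threshold. Eno had signals of 10390, 10081, 10427 and 10471 after ionizing radiation and 16230, 15274, 15515 and 14685 in stress controls, again without overlap. Its log2 fold change of -0.57 (95% interval -0.88 to -0.27, limma adjusted p = 0.00419), a 1.49-fold difference, stopped just short of 1.5-fold. Pglym78 (log2 fold change -0.45, limma adjusted p = 0.000718) and Pyk (-0.42, limma adjusted p = 0.00166) were also lower on every irradiated array than in every control, and under 1.5-fold. Of the 5 enzymes 4 had groups without overlap, against 29.2% of all genes. Pfk had a log2 fold change of -0.22 (limma adjusted p = 0.155), where Ionizing radiation replicate 1 read 4502 and the other 3 arrays 3144 to 3383. Ldh signals of 547, 931, 853 and 783 overlapped the stress controls (log2 fold change 0.14, 95% interval -0.26 to 0.55, limma adjusted p = 0.690).

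Irradiated flies were 2 days older than the stress controls and had spent those days in sucrose vials. The sugar flies, of the same age and diet, were therefore the comparison matched in age and diet. The sugar arrays alone were deposited on a lower scale, which cannot be told apart from the treatment in any comparison with sugar flies. Against sugar flies 2 of the 5 enzymes were lower, the same genes Gapdh1 and Pgk, where 14.5% of all genes were called in either direction and 8.19% lower. Gapdh1 signals in sugar flies were 16544, 15431, 16329 and 17720, well above all irradiated arrays, and the log2 fold change was -0.80 (95% interval -0.97 to -0.62, limma adjusted p = 1.39e-08). For Pgk, which read 4639, 4578, 4647 and 4885 in sugar flies, it was -0.71 (95% interval -1.08 to -0.33, limma adjusted p = 0.00416). The call of Pgk was lost without any of Ionizing radiation replicates 1, 3 and 4 or Sugar replicates 1, 3 and 4, with limma adjusted p from 0.0101 to 0.0179 in those fits, which left 1 of the 5. Old replicate 2 was kept in those fits. With that array left out instead, Pgk was at -0.71 (limma adjusted p = 1.29e-06) and called. Gapdh2 was lower by 1.58-fold (limma adjusted p = 0.000132), and by -0.55 on the log2 scale, under the threshold, without Ionizing radiation replicate 1.

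**Figure D4:**
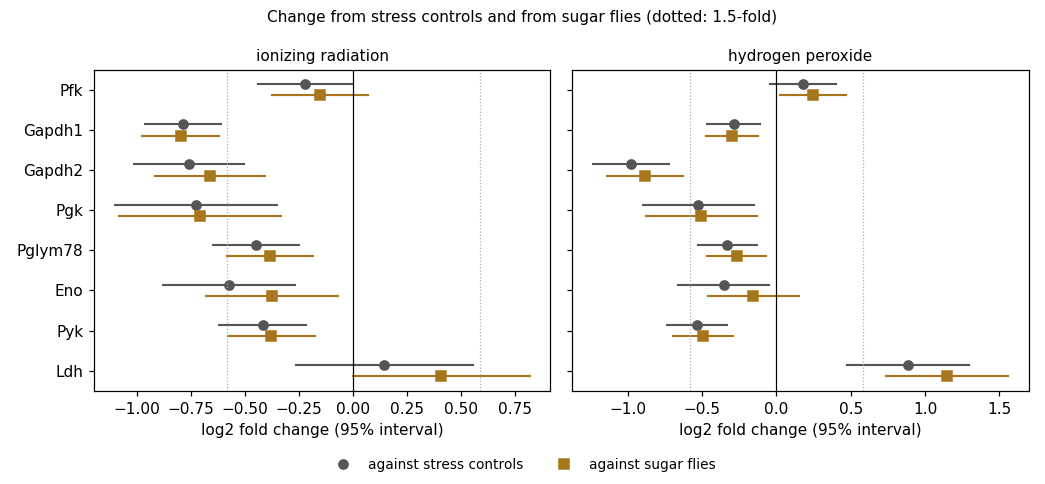
Log2 fold change (points) with 95% intervals (lines) of 8 glycolytic genes in irradiated (left) and hydrogen peroxide (right) flies, against stress controls (grey circles) and against sugar flies (brown squares); dotted lines mark 1.5-fold. Gapdh1 after ionizing radiation is at -0.79 against stress controls and at -0.80 against sugar flies, and Ldh after hydrogen peroxide is at 0.89 and 1.15.

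After hydrogen peroxide feeding Gapdh2 was lower and Ldh was higher. Of the 5 enzymes in the count, 0 were called by limma's nested F-test against stress controls, where 18.7% of all genes were called. At an unadjusted p under 0.05 in limma's moderated test 4 of the 5 were lower and 0 higher, beside 40.3% of all genes in either direction. Their median log2 fold change was -0.33, beside 0.05 for all genes.

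Gapdh2 signals were 8083, 5376, 8039 and 6519 after hydrogen peroxide, which included the lowest of all 35 arrays, against 13613, 12502, 14152 and 14488 in stress controls. The groups did not overlap. The decrease was 1.97-fold (log2 fold change -0.98, 95% interval -1.24 to -0.73, limma adjusted p = 1.94e-07). Gapdh1 differed less, at 13871, 12300, 13084 and 14419, with a log2 fold change of -0.29 (limma adjusted p = 0.0104), and was not called.

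Ldh signals were 1246, 1274, 1235 and 1459 after hydrogen peroxide and 668, 970, 579 and 596 in stress controls. All peroxide arrays lay above the highest control. The mean rose 1.85-fold, from 703 ± 182 (SD, n = 4) to 1304 ± 105 (SD, n = 4), with a log2 fold change of 0.89 (95% interval 0.48 to 1.29, limma adjusted p = 0.000870). Against sugar flies, which read 571, 574, 531 and 599, the increase was 2.22-fold (log2 fold change 1.15, 95% interval 0.74 to 1.56, limma adjusted p = 4.13e-05).

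Pyk, the last ATP-making step, had signals of 11789, 10360, 12397 and 13746 after hydrogen peroxide and of 17323, 17323, 16608 and 18568 in stress controls. The groups were apart, but the 1.45-fold difference (log2 fold change -0.54, 95% interval -0.74 to -0.33, limma adjusted p = 7.45e-05) was under the threshold. It passed it without Hydrogen peroxide replicate 4, the highest array, at -0.60 (limma adjusted p = 3.33e-05). Pglym78 (log2 fold change -0.33, limma adjusted p = 0.00972), Pgk (-0.53, limma adjusted p = 0.0290) and Eno (-0.36, limma adjusted p = 0.0748) were lower on every peroxide array than in every control and not called, and 4 of the 5 enzymes had groups without overlap, against 33.1% of all genes. Without Old replicate 2, whose signals enter the shared estimate of the spread, limma adjusted p was 8.16e-05 for Pgk and 0.00100 for Eno. Both stayed under 1.5-fold. Pfk was at 0.18 (limma adjusted p = 0.232), with overlap.

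Against sugar flies 0 of the 5 enzymes were called after hydrogen peroxide by limma's moderated test, where 15.6% of all genes were called. At an unadjusted p under 0.05, 1 of the 5 was higher and 3 were lower, beside 37.5% of all genes. Gapdh2 was again lower, by 1.85-fold (log2 fold change -0.88, limma adjusted p = 1.49e-06), and its sugar arrays at 12648, 12125, 12169 and 14294 all exceeded the peroxide arrays.

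Aging was compared with these 2 treatments as well, by the difference of the fold changes. For Gapdh2 aging exceeded ionizing radiation by 0.88 on the log2 scale (limma adjusted p = 0.000234) and hydrogen peroxide by 1.11 (limma adjusted p = 6.67e-06), and without Old replicate 2 by 0.95 and 1.18. For Ldh it exceeded ionizing radiation by 1.42 (limma adjusted p = 0.000228), and the difference from hydrogen peroxide, 0.68 (95% interval 0.13 to 1.24), did not pass (limma adjusted p = 0.0604). These values of Ldh without Old replicate 2 were 1.46 and 0.72 (limma adjusted p = 0.0588 for the second). Among the 5 enzymes, 1 differed between aging and ionizing radiation, Gapdh1 by 0.60 (limma adjusted p = 0.000280), against 12.9% of all genes. There were 2 without Old replicate 2, Gapdh1 at 0.57 and Pgk at 0.65 (limma adjusted p = 0.000882). Also 1 differed between aging and hydrogen peroxide, Pfk by -0.51 (limma adjusted p = 0.00851), against 21.9% of all genes, and 0 without Old replicate 2, where Pfk was at -0.40 (limma adjusted p = 0.0278).

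Sugar flies against stress controls address the sucrose vials together with 2 days of age, and none of these enzymes was called. Sugar flies were 11 days old and stress controls 9 days, and the sugar arrays alone were deposited on a lower scale. These differences cannot be told apart in this comparison. Of the 5, 0 were called in sugar flies by limma's nested F-test, against 5.06% of all genes, and 0 had an unadjusted p under 0.05 in limma's moderated test, beside 23.7% of all genes. Their log2 fold changes ran from -0.20 for Eno to 0.01 for Gapdh1. Eno, at 14294, 12976, 12697 and 13806, was the one enzyme of the count whose sugar arrays all lay below the stress controls (limma adjusted p = 0.469), against 24.6% of all genes without overlap. Gapdh2 was at -0.10 (limma adjusted p = 0.717), Pyk at -0.04 (limma adjusted p = 0.867) and Ldh at -0.26 (95% interval -0.67 to 0.15, limma adjusted p = 0.478).

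The array carries GAPDH control probe sets, used for RNA quality, which were in no test. On the deposited scale the 3' GAPDH control read 31277 to 34342 in old flies, or 31277 to 32838 without Old replicate 2. It read 21395 to 26119 in young controls and 16112 to 21799 in hyperoxia. It read 10568 to 12889 after heat stress, 10729 to 13032 after ionizing radiation and 8503 to 11945 after hydrogen peroxide, against 20060 to 20578 in stress controls. Its lowest mean in the stress arrays at that scale was after hydrogen peroxide, 10730, the treatment with the lowest Gapdh2 mean, while the lowest Gapdh1 mean was after ionizing radiation. The middle GAPDH control read 9186 to 14766 in old flies (14470 to 14766 without Old replicate 2) against 11282 to 13378 in young controls. The 5' control read 248 to 7901 in old flies (3224 to 7901 without that array) against 4418 to 6520, with overlap. The files do not say which copy these controls match.

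Markers of tissues moved in the same comparisons, and their part in the enzymes' changes was not tested. Of 15 muscle markers, genes of the tissue known for high glycolysis, 2 were up-regulated and 4 down-regulated after ionizing radiation, with summed signals of 72957 to 94255 against 94022 to 98455 in stress controls and 8.23% of all genes called down. After hydrogen peroxide, where 9.75% of all genes were called down, 1 rose and 4 fell, with sums of 77691 to 84181, and sugar flies summed to 82597 to 87883 with 0 called. In aging 1 rose and 4 fell (3 without Old replicate 2), where 9.40% of all genes were called down. The sums in old flies were 79263 to 90851, or 86161 to 90851 without Old replicate 2, against 89345 to 98929 in young controls. In hyperoxia 1 rose and 0 fell, with sums of 94860 to 99025, and after heat stress 0 were called, with sums of 106236 to 112799. No muscle marker was at background on every array, the lowest mean signal being 1100 for sls. Of 7 gut markers 4 fell after ionizing radiation, 6 after hydrogen peroxide, 5 after heat stress, 4 in hyperoxia, 3 in sugar flies and 1 in old flies. Of 8 accessory gland markers 7 fell after ionizing radiation and 7 after hydrogen peroxide, 5 in hyperoxia, 2 after heat stress, and 3 in sugar and 3 in old flies. In old flies 1 accessory gland marker rose, with or without Old replicate 2. Of all genes, 14.0% were called in either direction in heat stress, 8.23% in hyperoxia and 5.06% in sugar flies.

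The arrays of a group also varied together in these enzymes. After removal of the group means, the median correlation over pairs of the 8 genes without Tpi was 0.31 over 35 arrays and 0.22 without Old replicate 2. For Pgk and Eno it was 0.83 with that array and 0.07 without it, and for Pgk and Pyk 0.82 and 0.61. These values describe the arrays, and what the genes share on an array was not tested. The genes whose signals, relative to each study's controls, were most like the mean of the 5 enzymes over 35 arrays were ATPsyngamma (r = 0.94), ATPsynO (r = 0.86), CG11151 (r = 0.85), CG7920 (r = 0.85) and blw (r = 0.84), among 10839 genes. Old replicate 2 was among the 35 arrays, and these values of r were not computed without it. How far they rest on that array was not tested.

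Around these enzymes, some genes for the entry of hexose into the pathway were up-regulated against stress controls, and others were lower against sugar flies. Of 5 genes for hexose entry and upper glycolysis, 2 were up-regulated and 0 down-regulated after ionizing radiation, after hydrogen peroxide and in sugar flies, where 16.0%, 18.7% and 5.06% of all genes were called in either direction. Hex-A, a hexokinase, rose after ionizing radiation from 1514 ± 366 to 3054 ± 420 (SD, n = 4 each, log2 fold change 1.01, limma adjusted p = 1.67e-05) and in sugar flies by 0.67 (limma adjusted p = 0.00935). Irradiated against sugar flies it was at 0.35 (limma adjusted p = 0.141) and not called. Pfrx, the enzyme that makes the activator of phosphofructokinase, rose after hydrogen peroxide by 1.00 on the log2 scale (limma adjusted p = 2.38e-09), and against sugar flies it was at 0.55 (limma adjusted p = 9.87e-05), under 1.5-fold. Hex-C, a second hexokinase, fell by 1.01 on the log2 scale in heat stress (limma adjusted p = 3.82e-07) and rose by 0.69 in sugar flies (limma adjusted p = 0.000300). Against sugar flies Hex-C was called lower after ionizing radiation (-1.04, limma adjusted p = 3.59e-08) and after hydrogen peroxide (-0.60, limma adjusted p = 0.000173). Pgi, phosphoglucose isomerase, was also called lower against sugar flies, at -0.87 (limma adjusted p = 1.83e-06) and -0.60 (limma adjusted p = 0.000324). In neither treatment was a gene of this list called higher than in sugar flies.

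Several paralogs of the glycolytic enzymes fell in old flies. Of 10 measured paralogs of glycolytic enzymes 6 fell in old flies and 0 rose, with a median log2 fold change of -0.94 and 9.40% of all genes called down, and 6 fell without Old replicate 2 as well. The pyruvate kinase paralogs CG7069 (log2 fold change -1.15, limma adjusted p = 1.60e-07; -1.17 without Old replicate 2) and CG12229 (-1.12, limma adjusted p = 1.05e-10; -1.10 without it) were among them, while Pyk itself was at -0.10. Beside this, 8 of 10 testis markers fell in old flies (7 without Old replicate 2), with sums of 47178 to 60948 against 83214 to 93275 in young controls (52176 to 60948 without Old replicate 2). After heat stress 3 of the 10 paralogs rose, where 14.0% of all genes were called in either direction: Hex-t2 by 0.78, Pglym87 by 0.64 and CG7069 by 0.63 on the log2 scale, each of which had fallen in old flies. Beside them 2 testis markers, djl and ocn, rose after heat stress. After ionizing radiation 1 paralog, Hex-t2, rose, by 0.73. In hyperoxia 0 of the paralogs and 0 of the testis markers were called, and after hydrogen peroxide 1 paralog was, the phosphoglycerate mutase paralog CG7059, which rose by 1.46 (limma adjusted p = 1.77e-11).

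Genes of the routes that reoxidize or redirect the products of glycolysis changed as well. Of 6 listed genes of the glycerol phosphate shuttle, the route by which insects reoxidize NADH, 5 were measured. Gpo1 was not measured, and the measured genes were Gpdh1, Gpdh2, Gpdh3, Gpo2 and Gpo3. Of these 4 fell in old flies and 0 rose, with or without Old replicate 2, where 9.40% of all genes were called down and 8 of 10 testis markers fell. The part of the testis in these values was not tested. Among the 4 were Gpo2 (log2 fold change -1.49, limma adjusted p = 6.34e-06; -1.66 without Old replicate 2) and Gpo3 (-1.15, limma adjusted p = 1.22e-07; -1.05 without it). Gpdh1, the cytosolic dehydrogenase of the shuttle, fell in hyperoxia by 1.07 on the log2 scale (limma adjusted p = 6.09e-08). It was also called lower in old flies, at -0.63 (limma adjusted p = 0.000678) and at -0.77 without Old replicate 2. After ionizing radiation Gpdh1 was the 1 shuttle gene called, at -0.86 (limma adjusted p = 3.92e-05), where 8.23% of all genes were called down. Irradiated against sugar flies it was called at -0.72 (limma adjusted p = 0.000472). Pdk, the kinase that inhibits pyruvate dehydrogenase, rose in old flies by 0.95 (limma adjusted p = 3.15e-07; 0.86 without Old replicate 2) and in heat stress by 1.42 (limma adjusted p = 6.17e-09). Pdk also rose after ionizing radiation by 0.68 (limma adjusted p = 0.000182) and after hydrogen peroxide by 0.80 (limma adjusted p = 1.57e-05). Against sugar flies it was called higher in both treatments, at 0.75 and 0.87. In hyperoxia and in sugar flies Pdk was not called. Pepck2, a phosphoenolpyruvate carboxykinase, rose by 0.94 on the log2 scale in hyperoxia, 2.13 in heat stress, 1.28 after ionizing radiation and 1.14 after hydrogen peroxide, with limma adjusted p of 2.62e-06 or less. In old flies Pepck2 fell by 0.87 on the log2 scale (limma adjusted p = 3.57e-05), and by 0.99 without Old replicate 2. Its sister gene Pepck1, whose enzyme starts gluconeogenesis, rose by 0.74 in hyperoxia (limma adjusted p = 2.97e-08) and fell by 1.41 on the log2 scale in sugar flies (limma adjusted p = 4.31e-11).

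Genes of sugar stores and of the pentose phosphate pathway fell after ionizing radiation and hydrogen peroxide, where 8.23% and 9.75% of all genes were called down. Of 8 genes of glycogen and trehalose metabolism 5 fell after ionizing radiation and 4 after hydrogen peroxide, with 0 up in either, and 0 were called in sugar flies. They included CG9485, the glycogen debranching enzyme (log2 fold change -1.23 after ionizing radiation, limma adjusted p = 1.53e-08), and Glyp, the phosphorylase (-1.08, limma adjusted p = 6.88e-06). Of 5 genes of the pentose phosphate pathway 3 fell in each of these treatments, and 1, Pgls, fell in sugar flies too. After heat stress 2 of the 5 fell as well, where 14.0% of all genes were called in either direction. These were Rpi (log2 fold change -0.97, limma adjusted p = 2.66e-05) and Pgls (-0.89, limma adjusted p = 0.00130). Taldo, the transaldolase, fell by 1.30 on the log2 scale after hydrogen peroxide (limma adjusted p = 6.56e-06). Against sugar flies Taldo was called lower after hydrogen peroxide (-1.36, limma adjusted p = 3.94e-06) but not after ionizing radiation (-0.68, limma adjusted p = 0.0141). CG8036, a transketolase, was called lower against sugar flies after ionizing radiation (-0.68) and hydrogen peroxide (-0.79). Rpe and Pgls were called in neither, at -0.45 and 0.26 after ionizing radiation and -0.21 and -0.24 after hydrogen peroxide. Markers of the fat body, the tissue known to store glycogen, moved in the same comparisons. Of 6 measured, 2 fell and 1 rose after ionizing radiation and 3 fell and 1 rose after hydrogen peroxide. Their summed signals were 22286 to 26653 and 13561 to 19885, against 32547 to 39337 in stress controls and 34121 to 36210 in sugar flies. The lipoprotein gene apolpp had log2 fold changes of -1.17 after ionizing radiation and -2.68 after hydrogen peroxide. The storage protein gene Lsp2 had -1.25 and -1.19 there, and -2.74 in sugar flies. In hyperoxia the sums were 19108 to 23772 against 33920 to 46657 in young controls, and 2 of the 8 glycogen and trehalose genes fell. The part of the fat body in these values was not tested.

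Of 8 regulators of the pathway, 3 rose and 1 fell after ionizing radiation, and 2 rose and 1 fell after hydrogen peroxide, where 16.0% and 18.7% of all genes were called in either direction. ERR, the receptor that drives glycolytic genes in larvae, rose after ionizing radiation from 498 ± 21.7 to 893 ± 94.6 (SD, n = 4 each, log2 fold change 0.80, limma adjusted p = 6.35e-07) and by 0.80 after hydrogen peroxide (limma adjusted p = 5.28e-07). Against sugar flies ERR was at 0.51 in both treatments, under 1.5-fold (limma adjusted p = 0.000508 and 0.000465). Sugarbabe (sug), a sugar-responsive transcription factor, fell by 1.91 on the log2 scale after ionizing radiation (limma adjusted p = 2.76e-07) and fell by 2.04 after hydrogen peroxide (limma adjusted p = 6.75e-08). It was also called lower in hyperoxia (-0.74, limma adjusted p = 0.00840) and in heat stress (-0.80, limma adjusted p = 0.0290). In each of these 2 comparisons it was the 1 regulator called, where 8.23% and 14.0% of all genes were called in either direction. Mondo, the fly relative of the sugar sensor ChREBP, rose in old flies by 0.85 (limma adjusted p = 0.000220; 0.82 without Old replicate 2). Its partner bigmax rose by 1.54 after hydrogen peroxide (limma adjusted p = 1.70e-09), by 1.00 after ionizing radiation and by 0.99 in sugar flies (limma adjusted p = 0.000103). Against sugar flies it was at 0.56 after hydrogen peroxide (limma adjusted p = 0.00687) and 0.01 after ionizing radiation, and not called. The hypoxia factor sima rose in sugar flies by 0.59 (limma adjusted p = 0.00888) and was not called in the other 5 comparisons.

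**Figure D5:**
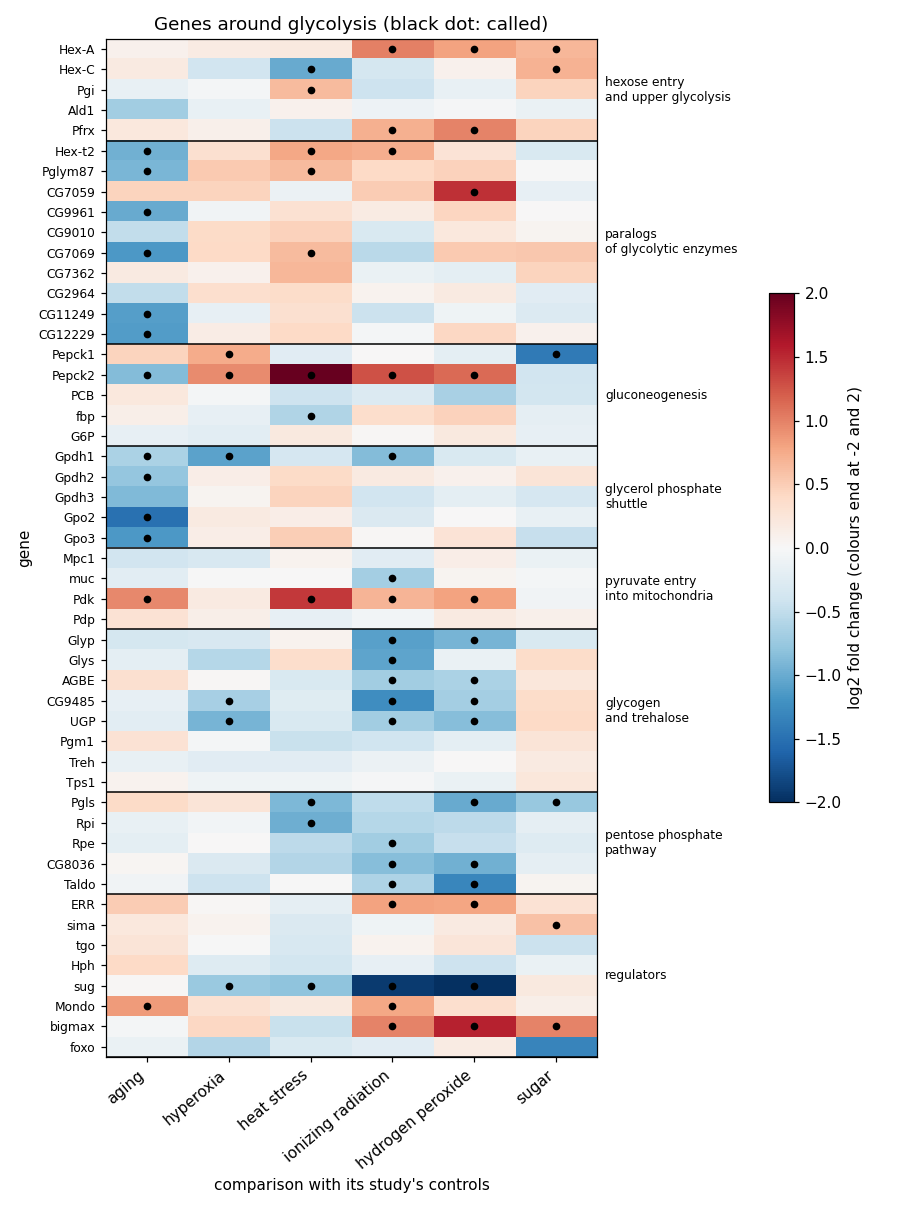
Log2 fold changes (colour, ends at -2 and 2) of the genes around glycolysis in 6 comparisons with each study's own controls; rows are genes grouped by list and a black dot means called. The paralogs and the glycerol phosphate shuttle are mostly blue in aging, glycogen genes are blue after ionizing radiation and hydrogen peroxide, and Pepck2 is red in 4 treatments and blue in aging.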

How the data were processed

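RNA of whole male flies was measured on 35 Affymetrix DrosGenome1 arrays, grouped by their sample labels. The authors deposited 1 linear table of signal intensity values for 14010 probe sets. MAS5 is the tool in the submitters' processing notes (version: not given in the sources), and the study's own fold changes came from another model of the probe signals. From the values, 31 arrays share 1 scale and the 4 sugar arrays do not, so differences in overall RNA amount cannot be read from the table.

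Here 44 control probe sets were left out, the log2 intensities of 13966 probe sets were quantile normalized, 34.1 (the 10th percentile of all normalized values) was added to the signals, and log2 values were fitted in R 4.3.3 with limma 3.58.1 as 8 group means (27 residual degrees of freedom, 30.2 after moderation). Each study's treatments were set against that study's own controls, young controls for the aging study and stress controls for the stress study. Calls used the nested F-test over 6 contrasts at an FDR of 1% with 1.5-fold, which controls the FDR per gene, so the adjusted p of a call is not bound to be under 0.01. Comparisons with sugar flies and differences between fold changes used the moderated test at an adjusted p under 0.01. The platform's table matches 12443 probe sets to 1 gene, 327 to several and 1196 to none, 12394 symbols were updated, and of several probe sets of a gene the brightest on average was used. Named genes are all members, the 4 most changed called genes (or fewer) over the other pathway lists in each direction of each contrast, and the 5 genes most like the members. Beyond this, further contrasts, comparisons with sugar flies and values without Old replicate 2 were added for genes already named, as were the markers djl, ocn, apolpp and Lsp2, chosen after their values were seen. The members and lists were chosen with earlier results of these data known. The fit was tested on simulated data. Alternatives covered the normalization, pseudocount, filter, samples fitted, call rule, fold threshold, replicate block and each replicate left out. The number of arrays limits the precision, and p-values measure the spread between separately processed samples.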

Additional observations from a re-analysis of the deposited data

Results flagged for a closer look

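In 3 of 63 groups of 4 to 6 arrays, 1 array of a gene was set apart from the others by a gap that took up most of the range (Dixon's test at its 95% critical value, which chance passes in about 1 of 20 groups). Pgk in Old replicate 2 had a log2 signal of 10.83, where the other 3 old arrays had 12.16 to 12.27. Gapdh2 in Old replicate 2 was at 13.72, where the others had 13.98 to 14.02. Gapdh2 in Ionizing radiation replicate 1 was at 12.65, where the others had 13.06 to 13.14. Their 3' to 5' ratios were 283 (actin) and 138 (GAPDH) for Old replicate 2, the highest of all arrays. For Ionizing radiation replicate 1 they were 7.44 (actin), the next highest, and 3.72 (GAPDH), which is below all young controls (3.84 to 5.48) and above the other stress study arrays. The part of RNA quality in the 3 values was not tested.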

How the results depend on the processing

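Of 1216 values of single genes under the alternatives, 1184 kept their side of the threshold, 14 lost a call, 18 gained one and 0 changed direction past the threshold. The calls of Ldh in aging, hyperoxia and hydrogen peroxide and of Gapdh1 after ionizing radiation held under every alternative run. Counts of the 5 enzymes changed as follows. With a fold threshold of 1.2 they were 2 in aging, 1 in hyperoxia, 1 in heat stress, 4 after ionizing radiation, 2 after hydrogen peroxide, and 3 and 1 for ionizing radiation and hydrogen peroxide against sugar. With arrays scaled to a common trimmed mean in place of quantile normalization, 0 were called in aging and 3 after ionizing radiation, and 1, 0 and 0 differed between aging and hyperoxia, heat stress and hydrogen peroxide. With only the compared groups in the fit, 0 were called in aging and 0 differed in these 3. Without the sugar arrays, an alternative chosen after seeing the data, 1 was called after ionizing radiation, and 1 and 0 differed between aging and hyperoxia and hydrogen peroxide. Without Old replicate 2 and Ionizing radiation replicate 1 together, also chosen after seeing the data, 0 were called in aging, and 1 and 2 differed between aging and hyperoxia and ionizing radiation. Leaving out 1 array at a time gave 0 to 1 in aging, 2 to 3 after ionizing radiation and 1 to 2 for ionizing radiation against sugar. For the differences of aging it gave 0 to 2 from hyperoxia, 0 to 1 from heat stress, 1 to 2 from ionizing radiation and 0 to 1 from hydrogen peroxide. Eno after ionizing radiation was called without Stress controls replicate 4 (-0.60) or with scaling (-0.69), and Pyk after hydrogen peroxide with scaling (-0.60). The cause of these changes was not tested. Arrays of equal replicate number were not paired by the labels, and their residual correlations ran from -0.06 to 0.02 over 13 pairs of groups. With a replicate block the counts were 1 in aging and 2 after ionizing radiation, and 1 and 0 differed between aging and hyperoxia and hydrogen peroxide; no other count changed. The alternative of the probe set with the lowest signal gave no other value, since each of the 5 enzymes has 1 single-gene probe set.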
